A study of Rattus norvegicus with 17 samples.

Results

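The cytochrome P450 genes of the rat liver array encode haem enzymes that oxidise steroids, fatty acids, retinoids, vitamins and foreign compounds. They were taken as every probe set whose platform annotation gives a single gene symbol of the form Cyp and a number, without Cyp51 and the bile acid synthesis genes Cyp7a1, Cyp7b1, Cyp8b1 and Cyp27a1. For each gene the set of highest mean signal was used, which gave 52 genes from 53 probe sets, of 14557 named genes on the array. Cyp2b3 alone had 2 sets, and 18 further sets whose annotation joins a P450 symbol to other symbols were left out. Of the 52 genes, 49 passed the filter on low values and were tested, and Cyp2b21, Cyp2j16 and Cyp11b1 did not pass it. A total of 36 genes had a mean above 2.58, the median of all values, on the log2 scale of the deposited signals.

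The livers came from 17 male Wistar rats of 24 days, 1 pup from each litter. All dams had eaten a choline-deficient diet for 16 weeks before mating to establish fatty liver, including the mothers of the NN group. The 2 letters of a group stand for the dam's diet, the first in pregnancy and the second in lactation, and N means adequate choline and D deficient choline. There were 5 DN livers and 4 livers in each of NN, ND and DD, and no group had a mother without the earlier deficient diet.

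P450 enzymes sit in the endoplasmic reticulum or in mitochondria and receive electrons from partner proteins such as P450 oxidoreductase. In liver, families 1 to 3 are known for the metabolism of drugs and steroids and family 4 for the hydroxylation of fatty acids. Several rat genes of subfamily 2C differ between the sexes in adults and are set by the pattern of growth hormone at puberty, and subfamilies 2B, 3A and 4A respond to the nuclear receptors CAR, PXR and PPAR alpha.

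The tissue labels name liver, but the description of every sample gives LnCap, a prostate cancer line, instead. Of 8 hepatocyte markers 6 were measured, and their mean signal was between 10.8 and 11.0 in every liver. Alb, which encodes albumin, averaged 11.7, whereas Pbsn, the only measured one of 4 prostate genes, lay below the filter at 1.58. The array medians ran from 2.50 to 2.71, and the SD of all signals on an array, called array spread here, ran from 1.62 to 1.79. Mean array spread was 1.70 in NN, 1.74 in ND, 1.75 in DN and 1.67 in DD. A signal also depends on the probes of its set, so signals are compared between livers and not between genes. The values come from whole tissue, so fewer cells of a type and less RNA per cell cannot be told apart.

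Promoters of 4 genes are shown. The signals of Cyp2b1 and Cyp2c13 differed widely between single livers, Cyp2b2 is the close relative of Cyp2b1, and Cyp2c12 is the adult female counterpart of the male Cyp2c13. Each run covers 250 bases before and 50 bases after the start annotated in RefSeq (build GRCr8), which holds a promoter for 43 of the 52 genes. Cyp2b1 lies at chr1:90645869-90646168 on the plus strand and Cyp2b2 at chr1:90722031-90722330 on the plus strand. Cyp2c12 lies at chr1:248676985-248677284 and Cyp2c13 at chr1:248787139-248787438, both on the minus strand. Capitals mark matches on either strand to TATAAA, the core of the TATA box, or to TTGCNNAA, a core of sites bound by C/EBP factors.
Cyp2b1: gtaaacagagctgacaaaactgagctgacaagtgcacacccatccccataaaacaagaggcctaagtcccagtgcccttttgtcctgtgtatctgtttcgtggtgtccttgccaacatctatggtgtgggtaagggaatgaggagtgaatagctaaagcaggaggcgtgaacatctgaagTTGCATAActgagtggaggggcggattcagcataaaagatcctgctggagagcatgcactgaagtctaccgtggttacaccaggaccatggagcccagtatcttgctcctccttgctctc
Cyp2b2: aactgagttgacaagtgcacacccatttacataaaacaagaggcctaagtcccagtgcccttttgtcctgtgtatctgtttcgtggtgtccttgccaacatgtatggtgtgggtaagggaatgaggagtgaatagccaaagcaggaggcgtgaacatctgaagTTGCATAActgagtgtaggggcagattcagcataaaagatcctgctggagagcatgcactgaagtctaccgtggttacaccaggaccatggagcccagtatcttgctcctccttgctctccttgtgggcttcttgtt
Cyp2c12: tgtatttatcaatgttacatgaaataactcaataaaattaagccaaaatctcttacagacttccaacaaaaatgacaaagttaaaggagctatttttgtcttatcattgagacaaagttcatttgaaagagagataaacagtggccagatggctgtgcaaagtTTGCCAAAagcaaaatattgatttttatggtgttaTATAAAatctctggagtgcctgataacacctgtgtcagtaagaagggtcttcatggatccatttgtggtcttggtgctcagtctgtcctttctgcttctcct
Cyp2c13: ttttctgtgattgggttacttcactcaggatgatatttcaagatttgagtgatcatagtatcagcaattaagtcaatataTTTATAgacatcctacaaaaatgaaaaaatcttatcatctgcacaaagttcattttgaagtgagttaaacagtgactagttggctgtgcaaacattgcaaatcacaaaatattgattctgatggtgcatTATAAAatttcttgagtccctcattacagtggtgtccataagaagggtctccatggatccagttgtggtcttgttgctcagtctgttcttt

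The Cyp2b1 and Cyp2b2 windows shared 275 bases in a global alignment, the most of any pair of P450 promoters compared. Both hold TTGCATAA, beginning 70 bases before the start in Cyp2b1 and 87 bases before it in Cyp2b2, and neither holds TATAAA in these letters. Cyp2c12 and Cyp2c13 shared 216 bases. TATAAA begins 52 bases before the start of Cyp2c12 and 41 before that of Cyp2c13, and of the pair only the Cyp2c12 window holds TTGCNNAA. TATAAA was found in 14.2% of 33469 rat promoters and in 11 of the 43 P450 promoters, and TTGCNNAA in 10.6% and in 11 of 43. The matches are descriptions of these windows. Array probes lie in transcripts and not in these windows, and probe sequences were not used here. Probes can cross-hybridise between closely related P450 transcripts, so the signals of Cyp2b1 and Cyp2b2, and of other genes of a shared subfamily, are uncertain as measures of a single gene.

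No P450 gene differed between diet groups at an adjusted p under 0.05 in any of the 7 comparisons by limma with Benjamini-Hochberg adjustment over 12912 genes. Across the whole array the share called was 0.0% for ND minus NN, DN minus NN, DD minus ND, DD minus NN, ND minus DN and the interaction, and 0.00774% for DD minus DN. The interaction is the lactation contrast after a deficient pregnancy (DD minus DN) less that after an adequate one (ND minus NN). The number of arrays limits what could be called, with a median standard error of 0.173 for a difference between groups of 4. The differences below are therefore given as sizes with their errors.

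**Figure D1:**
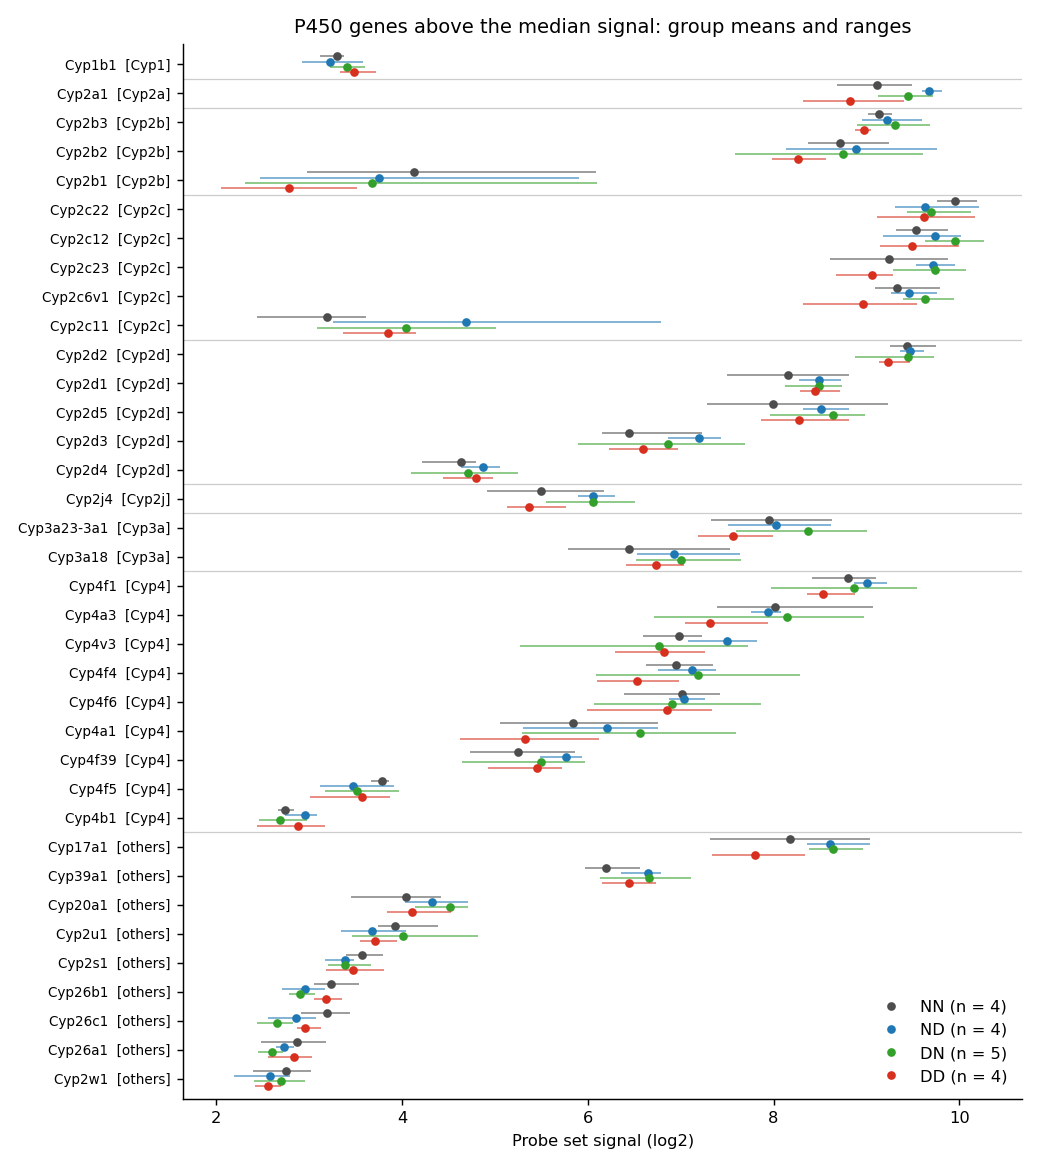
Log2 probe set signal of the 36 P450 genes with a mean above 2.58, by subfamily. Points are group means and lines run from the lowest to the highest liver of a group (NN, ND and DD n = 4, DN n = 5). DD has the lowest mean for 18 of the genes and the highest for 1.

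Among the 36 genes above the median signal, DD had the lowest group mean in 18, where this held for 38.1% of the 8861 genes of such signal on the array. DD had the highest mean in 1 of 36 (2.78%), Cyp1b1, against 20.8% of all such genes. DN had the highest mean in 15 (41.7%, against 30.4%) and ND in 12 (33.3%, against 25.3%). By subfamily, DD was lowest for Cyp2a1, Cyp2j4, 3 of 3 Cyp2b genes, 4 of 5 Cyp2c genes and 5 of 9 Cyp4 genes. NN was lowest for 4 of 5 Cyp2d genes, against 19.8% of all genes of such signal. These counts carry no test.

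DD livers were compared with DN livers to ask about deficient choline in lactation after a deficient pregnancy. Over the 49 genes tested the median difference was -0.14, against 0.01 over all genes tested, and 35 of 49 differences were below 0, against 48.4% of all genes. Among the 36 genes above the median signal 27 were below 0, against 56.8% of the 8861 genes of such signal. The genes of largest statistic were Cyp2c6v1 (-0.67 ± 0.207, SE), Cyp17a1 (-0.84 ± 0.274), Cyp2a1 (-0.62 ± 0.206), Cyp2j4 (-0.69 ± 0.227) and Cyp2c23 (-0.67 ± 0.239), with adjusted p from 0.139 to 0.168 in limma. An unadjusted p under 0.05 was reached by 9 lower genes, where 10.6% of all genes were lower at that p, and by 3 higher ones, where 7.84% were higher. The 9 became 15 without DN 5 (11.2% of all genes in that fit), 5 without DD 1 (7.46%) and 5 without DD 4 (8.37%). The 3 became 1 without DN 3, DN 4 or DD 2 and 0 without DD 4, where the shares of all genes were 6.97%, 5.75%, 9.16% and 5.86%. The median became -0.0700 without DN 2, -0.255 without DN 5 and -0.249 without DD 3. With array spread as a covariate it became -0.00443, with 1 lower and 0 higher genes, and the shares of all genes fell to 2.34% lower and 3.28% higher.

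DD livers were set against ND livers to ask about a deficient pregnancy when lactation was deficient as well. The median difference was -0.19, against -0.02 over all genes, with 35 of 49 below 0, against 52.9%, and 29 of the 36 above the median signal, against 62.2% of genes of such signal. Cyp2a1 (-0.84 ± 0.217), Cyp2j4 (-0.68 ± 0.239), Cyp17a1 (-0.81 ± 0.289), Cyp2c23 (-0.66 ± 0.251) and Cyp2c6v1 (-0.50 ± 0.218) were the 5 genes lower at an unadjusted p under 0.05, where 5.84% of all genes were, and adjusted p in limma was 0.550 to 0.554. No gene was higher at that p, where 2.93% of all genes were. Of the 5, all but Cyp2c6v1 had each DD liver below each ND liver, which held for 2.23% of all genes. Without ND 4 there were 3 lower genes, where 2.82% of all genes were, and 1 was higher without ND 2, ND 3, ND 4, DD 1 or DD 2, where 1.43% to 4.73% were. The median was -0.0546 once array spread entered the fit, with 1 lower gene, where 1.54% of all genes were lower.

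ND livers were compared with NN livers to ask about deficient lactation after an adequate pregnancy. The median was 0.10, against -0.01 over all genes, with 30 of 49 above 0, against 48.4%. Above the median signal 25 of 36 were above 0, against 56.2% of genes of such signal. Higher at an unadjusted p under 0.05 were Cyp2c11 (1.49 ± 0.564), Cyp2a1 (0.56 ± 0.217), Cyp2d3 (0.75 ± 0.321), Cyp2j4 (0.56 ± 0.239) and Cyp39a1 (0.45 ± 0.211), 5 genes where 2.75% of all genes were. Cyp3a9 (-0.40 ± 0.131) and Cyp26c1 (-0.34 ± 0.144) were the 2 lower ones, where 1.88% were, and adjusted p was 0.889 in limma for each of the 7. The 5 became 10 without NN 2, 2 without NN 3 and 1 without NN 4, without ND 4 or with array spread as a covariate. The share of all genes higher at that p moved as well, to 6.41% without NN 2, 1.73% without NN 3, 1.5% without NN 4, 1.44% without ND 4 and 1.21% in the covariate fit. The 2 became 1 without NN 3 (1.55% of all genes), without ND 1 (1.27%) or with the covariate (1.64%). The median became 0.248 without NN 2, 0.199 without ND 2, 0.0572 without ND 4 and 0.0197 with the covariate.

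The DN and NN livers bear on a deficient pregnancy followed by adequate lactation. The median was 0.11, against -0.03 over all genes, with 31 of 49 above 0, against 44.5%, and 25 of 36 above the median signal, against 51.2% of such genes. Higher at an unadjusted p under 0.05 were Cyp2j4 (0.57 ± 0.227), Cyp20a1 (0.47 ± 0.199) and Cyp39a1 (0.46 ± 0.200), 3 genes where 6.78% of all genes were. Cyp26c1 (-0.54 ± 0.137, adjusted p = 0.275 in limma) and Cyp26b1 (-0.34 ± 0.129) were the 2 lower ones, where 6.63% were. The 3 became 10 without NN 2 (10.7% of all genes), 0 without NN 4 (3.32%), 5 without ND 4 (7.34%) or DN 3 (5.92%), 1 without DN 4 (4.26%), 6 without DN 5 (6.93%) and 0 with array spread in the fit (3.09%). The 2 became 4 without NN 2 (10.1%), 1 without NN 3 (4.96%) and 1 with array spread in the fit (4.13%). The median became 0.190 without NN 2, 0.0475 without NN 3, 0.0162 without DN 2, 0.176 without DN 3 and 0.0513 with the spread covariate.

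Over the 49 genes tested the remaining pairs had medians closer to 0. For DD minus NN the median was -0.09, against -0.03 over all genes, with 0 of 49 genes at an unadjusted p under 0.05 in limma, where 1.33% of all genes were higher and 2.25% lower. Without NN 2, 3 were higher (1.36% of all genes in that fit) and 1 lower (2.68%). Without NN 3 or DD 2, 1 was lower (2.76% and 3.88% of all genes), and without DD 3, 2 were lower (1.84%). The DD minus NN median was -0.0459 without NN 2, -0.0609 without NN 3, -0.0460 without NN 4 and -0.0394 without DD 1. Above the median signal it was -0.163 on all arrays, against -0.0404 over genes of such signal. There 25 of 36 genes were below 0, against 59.1%. For ND minus DN the median was -0.01, against 0.02, with 0 genes higher at that p, where 1.68% were, and 2 lower, Cyp3a9 (-0.34 ± 0.124) and Cyp4f18 (-0.37 ± 0.161), where 1.15% were. Leaving out single arrays gave 0 to 2 higher genes (1.14% to 3.07% of all genes) and 1 to 2 lower ones (0.705% to 2.78%). The medians then ran from -0.0829 to 0.0502. The comparisons share groups, so they do not bear on each other independently.

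**Figure D2:**
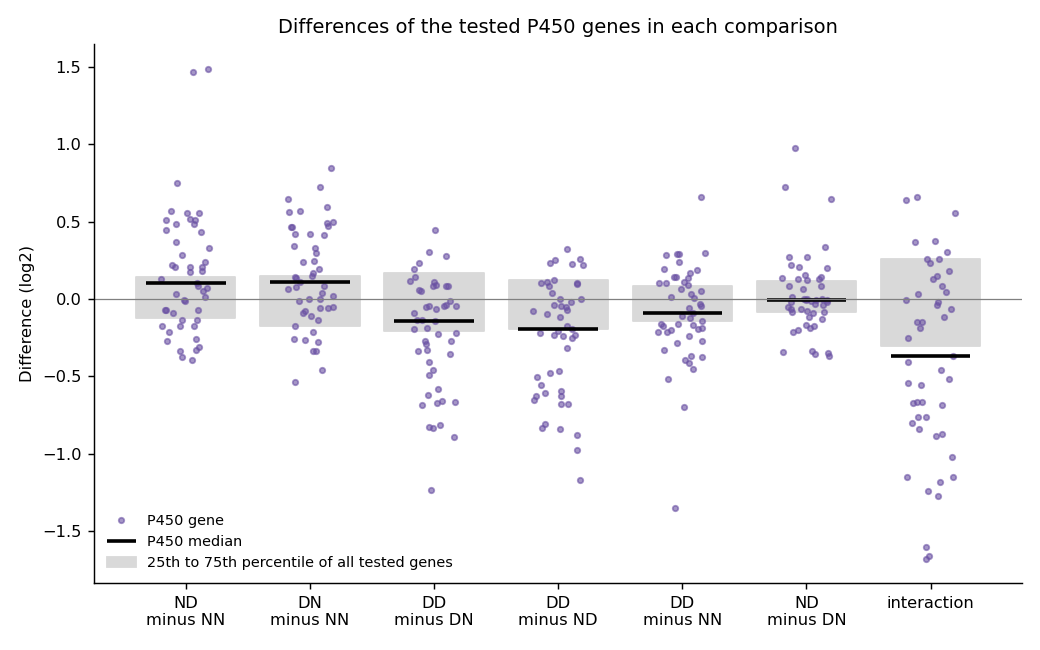
Log2 differences of the 49 tested P450 genes in each comparison, 1 point per gene, with the P450 median as a bar and the interquartile range of all 12912 tested genes as a grey box. The P450 median lies below the box's lower edge for the interaction only, at -0.37.

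Cyp2a1, a hepatic steroid 7 alpha-hydroxylase of the rat (probe set 17614591, chromosome 1), had the largest interaction statistic of the 49. Its signal was 9.40, 9.49, 8.87 and 8.69 in the NN livers and 9.67, 9.82, 9.60 and 9.60 in the ND livers. It was 9.62, 9.71, 9.17, 9.63 and 9.13 in DN, and 8.88, 9.40, 8.72 and 8.32 in DD. Each ND liver was above each NN liver, which held for 1.37% of all genes, and above each DD liver, while DN overlapped all groups. The interaction was -1.18 ± 0.299 (adjusted p = 0.114 in limma).

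Subfamily 2C held 6 genes, of which 5 were above the median signal. Cyp2c23 (probe set 17625842, chromosome 1), an arachidonic acid epoxygenase, was 9.53, 9.88, 8.93 and 8.61 in NN, 9.87, 9.53, 9.53 and 9.95 in ND, 9.97, 10.02, 9.29, 10.07 and 9.32 in DN, and 9.13, 9.29, 9.18 and 8.67 in DD. Each DD liver was below each ND and each DN liver, while NN overlapped each of the other groups. The highest DD liver (9.289) and the lowest DN liver (9.291) nearly met. Of all genes 3.2% were lower in DD than in DN without overlap. The interaction was -1.15 ± 0.347 (adjusted p = 0.120 in limma).

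Cyp2c6v1 (probe set 17625478), a constitutive drug and steroid hydroxylase of rat liver, was 8.32, 8.91, 9.54 and 9.06 in DD against 9.39 to 9.94 in DN. DD 3 lay within the DN range, so the groups overlapped. With array spread as a covariate its DD minus DN difference was -0.70 ± 0.253, about as large as without it.

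Cyp2c12, a steroid sulphate hydroxylase that is female-specific in adult rats, had a high signal in all of these prepubertal males, from 9.15 to 10.27. Its means were 9.54 ± 0.25 (SD, n = 4) in NN, 9.74 ± 0.39 in ND, 9.95 ± 0.26 (SD, n = 5) in DN and 9.49 ± 0.36 in DD, and DD minus DN was -0.46 ± 0.199. Cyp2c22, a further member, was highest in NN at 9.95 ± 0.20, against 9.63 to 9.69 in the other groups.

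Cyp2j4 (probe set 17808722, chromosome 5), an epoxygenase of fatty acids and the only gene of subfamily 2J that was tested, was 5.56, 6.18, 5.33 and 4.91 in NN, 5.89, 5.99, 6.03 and 6.29 in ND, 5.76, 6.31, 6.18, 6.51 and 5.55 in DN, and 5.30, 5.76, 5.13 and 5.29 in DD. Each DD liver was below each ND liver, and NN 2 was the one NN liver within the ND range. The interaction was -1.24 ± 0.330 (adjusted p = 0.114 in limma).

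The 5 genes of subfamily 2D, on chromosome 7, include enzymes of drug oxidation. For ND minus NN 5 of 5 were above 0, with a median of 0.33 and a range from 0.03 (Cyp2d2) to 0.75 (Cyp2d3), and for DN minus NN 5 of 5 were above 0 as well, with a median of 0.33. Cyp2d3 was 6.23, 7.23, 6.16 and 6.18 in NN against 6.86, 7.14, 7.44 and 7.35 in ND, so NN 2 alone lay within the ND range. Cyp2d5 was 8.02, 9.23, 7.43 and 7.29 in NN, a wider range than the 8.32 to 8.82 of ND or the 7.87 to 8.81 of DD. Both comparisons share the NN livers, and a low value in NN enters both.

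In subfamily 3A, on chromosome 12, the steroid and drug hydroxylase gene Cyp3a23-3a1 was 7.96, 8.63, 7.90 and 7.33 in NN, 8.15, 7.51, 7.83 and 8.62 in ND, 7.83, 9.01, 8.59, 8.83 and 7.60 in DN, and 7.24, 7.82, 7.99 and 7.19 in DD. The groups overlapped throughout, and DD minus DN was -0.82 ± 0.312. Cyp3a18 ran from 5.79 to 7.65 over all livers. Cyp3a9 and Cyp3a73 averaged 1.81 and 1.79, near the filter value of 1.73. Each ND liver was below each NN liver for Cyp3a9 (1.39 to 1.742 against 1.743 to 2.23), which held for 1.21% of all genes. The highest ND and lowest NN livers thus nearly met. Each ND liver was also below each DN liver (1.80 to 2.05), which held for 0.349%. The sizes of differences at such signals are uncertain.

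Family 4 had 13 genes, all of which were tested and 9 of which were above the median signal. Its fatty acid hydroxylases Cyp4a1 and Cyp4a3, known as targets of PPAR alpha, varied widely. Cyp4a1 was 6.21, 6.75, 5.33 and 5.06 in NN, 6.48, 6.27, 5.31 and 6.76 in ND, 7.12, 7.59, 5.49, 7.30 and 5.29 in DN, and 4.63, 6.12, 5.12 and 5.42 in DD. DN split into livers at or above 7.12 and livers at or below 5.49, and the difference of DD from DN was -1.24 ± 0.483. That difference was -0.38 ± 0.463 with array spread as a covariate. Cyp4a3 was 8.79, 8.98, 7.66, 8.58 and 6.71 in DN against 7.18, 7.94, 7.08 and 7.05 in DD, with overlap. Over the 13 genes 10 differences of DD from DN were below 0, with a median of -0.05.

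The Cyp4f genes include hydroxylases of leukotrienes. Cyp4f1 ran from 7.97 to 9.54 in DN, wider than the 8.36 to 8.88 of DD, and DD minus ND was -0.48 ± 0.263. Cyp4f4 ran from 6.09 to 8.29 in DN and from 6.10 to 6.99 in DD. Cyp4v3, of a fatty acid hydroxylase, was 5.27 in DN 1 and from 6.30 to 7.82 in the other livers.

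Among the other families, Cyp17a1 (probe set 17642593, chromosome 1) encodes the steroid 17 alpha-hydroxylase. Its signal was 8.38, 9.04, 7.31 and 7.95 in NN, 8.50, 8.37, 8.53 and 9.04 in ND, 8.50, 8.97, 8.77, 8.58 and 8.38 in DN, and 7.33, 8.33, 7.52 and 8.02 in DD. Each DD liver was below each ND and each DN liver, while NN overlapped each of the other groups. The interaction was -1.27 ± 0.399 (adjusted p = 0.129 in limma). Of 4 markers of the adrenal cortex, where the gene is also known, 3 were measured, with a mean signal of 2.11 in NN, 2.15 in ND, 2.13 in DN and 2.22 in DD.

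Cyp26a1, Cyp26b1 and Cyp26c1, which inactivate retinoic acid, were measured at signals not far from the median of the array. DN had the lowest mean of the 4 groups for each. DN was also lowest for 30.0% of all genes above the median signal and for 33.6% of all genes tested. Cyp26c1 (probe set 17641805, chromosome 1) was 3.37, 2.91, 3.44 and 3.05 in NN, 2.82, 3.07, 2.98 and 2.56 in ND, 2.68, 2.83, 2.44, 2.56 and 2.75 in DN, and 2.87, 2.91, 2.91 and 3.13 in DD. Each DN liver was below each NN liver, which held for 1.92% of all genes, and below each DD liver, which held for 2.68%. The interaction was 0.64 ± 0.199 for Cyp26c1 and 0.56 ± 0.187 for Cyp26b1, and it was 0.66 ± 0.239 for Cyp24a1, the vitamin D 24-hydroxylase. Cyp26a1 was 2.87 ± 0.31 in NN, 2.73 ± 0.08 in ND, 2.45 to 2.71 over the DN livers and 2.83 ± 0.22 in DD, with an interaction of 0.37 ± 0.203 (adjusted p = 0.317 in limma). Cyp11a1, the cholesterol side-chain cleavage enzyme of steroid-making tissue, also lay higher in each DD than in each DN liver, but its mean of 2.00 was below the median signal; it is named after its values were seen.

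Cyp39a1, an oxysterol 7 alpha-hydroxylase, was 6.20 ± 0.26 in NN, 6.65 ± 0.20 in ND, 6.66 ± 0.45 in DN and 6.44 ± 0.25 in DD. Cyp20a1, an orphan enzyme, was 4.14, 4.42, 4.16 and 3.45 in NN against 4.51, 4.65, 4.71, 4.55 and 4.14 in DN. In family 1, Cyp1b1, mostly known outside the liver, ran from 2.92 to 3.72 over all livers, and Cyp1a1, a target of the aryl hydrocarbon receptor, averaged 2.25. The 16 genes at or below the median signal had means from 1.40 to 2.47.

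For the interaction 34 of 49 differences were below 0, against 46.9% of all genes, with a median of -0.37, against 0.03. Above the median signal 28 of 36 were below 0, against 56.5% of genes of such signal. At an unadjusted p under 0.05, 12 genes were lower, where 11.9% of all genes were, and 3 were higher, where 8.12% were. The 3 were Cyp26b1, Cyp26c1 and Cyp24a1. The 12 became 7 without NN 4 (8.95% of all genes), 6 without ND 4 (8.77%), 7 without DD 1 (9.77%) and 2 with array spread as a covariate (1.81%), with which 0 were higher (2.68%). The median became -0.227 without NN 3, -0.233 without ND 4, -0.187 without DN 2, -0.222 without DN 4 and -0.0423 with the covariate.

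One liver decided whether interactions were called. Without NN 2, limma called 6 of the 49 genes, where 4.95% of all genes were then called. They were Cyp2j4 (-1.47 ± 0.294, adjusted p = 0.0269), Cyp17a1 (-1.56 ± 0.346, adjusted p = 0.0293), Cyp2a1 (-1.31 ± 0.302, adjusted p = 0.0321), Cyp2c23 (-1.37 ± 0.322, adjusted p = 0.0338), Cyp2d5 (-1.29 ± 0.344, adjusted p = 0.0433) and Cyp26c1 (0.73 ± 0.197, adjusted p = 0.0434). Leaving out any other single array gave 0 calls among them. NN 2 had the highest NN value in 23 of the 36 genes above the median signal, where it was highest for 40.5% of all such genes. Its array spread was 1.79, against 1.66 to 1.68 in the other NN livers. The part of array spread in these calls was not tested.

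**Figure D3:**
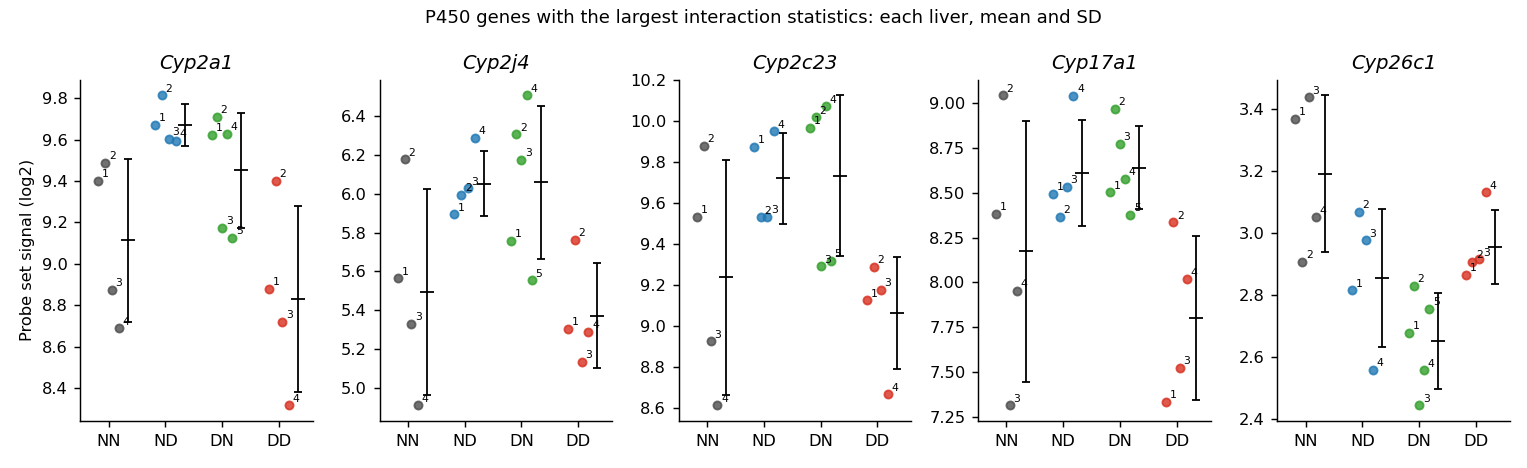
Log2 signal of each liver for Cyp2a1, Cyp2j4, Cyp2c23, Cyp17a1 and Cyp26c1, with the replicate number beside each point and the group mean and SD as a cross and bars. DD lies below ND and DN for Cyp2c23 and Cyp17a1, though the highest DD and lowest DN livers nearly meet for Cyp2c23. DN lies below NN and DD for Cyp26c1, and NN 2 is the highest NN liver for the first 4 genes.

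Variation between livers of a group was wider than the differences between groups for several genes. Over the 36 genes above the median signal the median SD within groups was 0.356, against 0.284 for all 8861 such genes, and the median share of variance between groups was 23.4%, against 21.8%. Cyp2b1 had the second largest SD within groups of the 12912 genes tested (1.43), Cyp2c13 the fourth (1.41) and Cyp2c11 the 33rd (0.919).

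Cyp2b1 (probe set 17614487) and Cyp2b2 (probe set 17614499) encode the phenobarbital-inducible enzymes of rat liver, whose promoters are shown above. Cyp2b1 was 3.42, 6.08, 2.98 and 4.05 in NN, 2.92, 3.73, 2.47 and 5.90 in ND, 2.31, 6.10, 2.38, 4.94 and 2.63 in DN, and 2.05, 3.46, 3.52 and 2.09 in DD. The lowest and highest livers differed by 4.04 on the log2 scale, and the lowest lay below the median of all values. The high livers were NN 2, ND 4, DN 2 and DN 4, and no DD liver passed 3.52.

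Cyp2b2 was 8.60, 9.25, 8.37 and 8.63 in NN, 9.01, 8.65, 8.14 and 9.76 in ND, 8.54, 9.61, 7.58, 9.35 and 8.66 in DN, and 7.98, 8.28, 8.21 and 8.56 in DD. NN 2, ND 4, DN 2 and DN 4 again had the highest values. Cross-hybridisation between these closely related genes was not tested. The difference of DD from NN was -1.35 ± 0.874 for Cyp2b1 and -0.45 ± 0.367 for Cyp2b2, each within the spread between livers (adjusted p = 0.999 in limma). Cyp2b3 varied little, from 8.88 to 9.68, and its second probe set from 7.53 to 8.73.

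Cyp2c11 and Cyp2c13 are male-specific in adult rats. Cyp2c13 (probe set 17867621) was 7.43 in ND 4 and from 1.40 to 2.92 in the other 16 livers, most of them near or below the median signal. Cyp2c11 (probe set 17625459) was 3.26, 3.94, 4.76 and 6.79 in ND, again highest in ND 4, against 2.44, 3.18, 3.54 and 3.61 in NN, 4.55, 4.29, 5.01, 3.27 and 3.09 in DN, and 3.94, 3.95, 4.15 and 3.36 in DD. Cyp2c12 was 9.95 in ND 4, within the range of the other ND livers. Without ND 4 the ND minus NN difference was 0.79 ± 0.432 for Cyp2c11 and 0.06 ± 0.289 for Cyp2c13, against 1.49 ± 0.564 and 1.47 ± 0.860 with it.

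**Figure D4:**
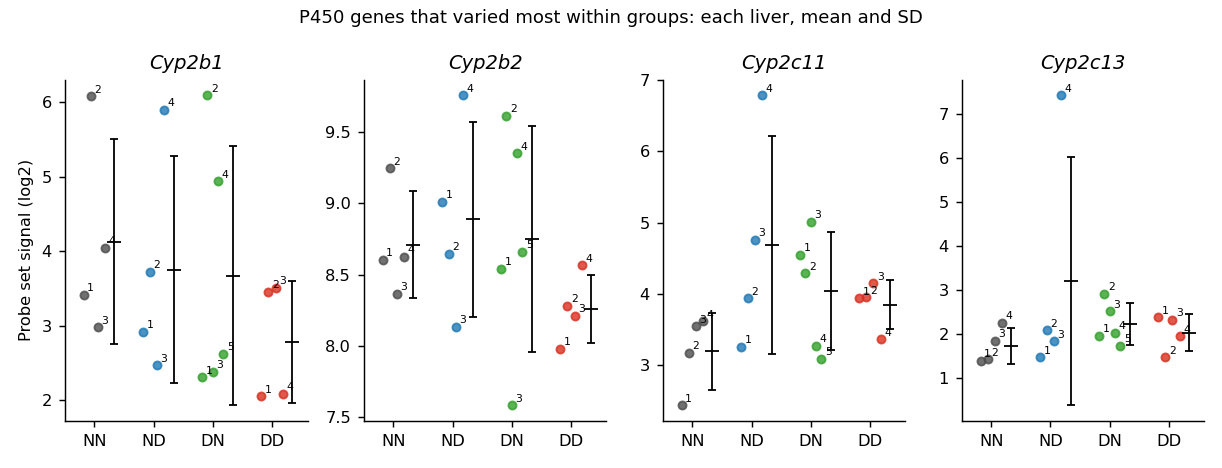
Log2 signal of each liver for Cyp2b1, Cyp2b2, Cyp2c11 and Cyp2c13, with the replicate number beside each point and the group mean and SD as a cross and bars. NN 2, ND 4, DN 2 and DN 4 are the high livers for Cyp2b1 and Cyp2b2, and ND 4 alone reaches 7.43 for Cyp2c13.

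Array spread moved with the level of the 36 P450 genes above the median signal from liver to liver. Genes chosen for such signal can stand higher on an array of wider spread. The same measure was not taken over all 8861 genes of such signal. A link particular to P450 genes was therefore not tested. The median deviation of the 36 genes from their own means was 0.397 in DN 2, 0.320 in ND 4, 0.301 in DN 4 and 0.220 in NN 2, whose array spreads were from 1.77 to 1.79. It was -0.304 in NN 4, -0.297 in DD 1, -0.274 in DD 4 and -0.264 in NN 3, whose spreads were from 1.66 to 1.68. DD 3, with the lowest spread of 1.62, stood at -0.0555. Mean spread was higher in ND (1.74) and DN (1.75) than in NN (1.70) and DD (1.67). Spread and diet group thus overlap in part, and a fit with spread as a covariate cannot tell them apart. In the fit that includes array spread, the interaction was -0.71 ± 0.320 for Cyp2a1, -0.54 ± 0.295 for Cyp2j4, -0.51 ± 0.346 for Cyp2c23 and -0.39 ± 0.344 for Cyp17a1 (adjusted p = 0.985 for each in limma). It was 0.37 ± 0.219 for Cyp26c1 and -0.86 ± 0.377 for Cyp2c6v1.

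**Figure D5:**
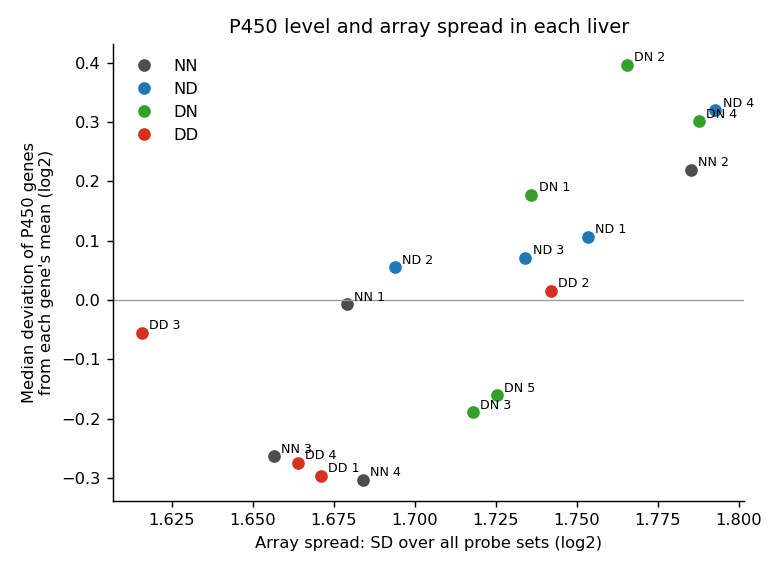
Median deviation of the 36 P450 genes above the median signal from each gene's mean (log2) against array spread, 1 point per liver coloured by group. The 4 livers of highest deviation, DN 2, ND 4, DN 4 and NN 2, have spreads of 1.77 or more.

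Receptors and other regulators of P450 transcription were described from a list of 20 genes, of which 16 were measured and 0 were called in any comparison (limma). At an unadjusted p under 0.05, 6 of the 16 had a lower and 2 a higher interaction, where 11.9% and 8.12% of all genes did. The largest were Ahr, the aryl hydrocarbon receptor (-1.63 ± 0.403), Nr1i3, which encodes CAR (-1.76 ± 0.460), and Bcl6, a repressor of sex-biased liver genes in the mouse (-2.18 ± 0.571), each at adjusted p = 0.114. Nr1i3 averaged 4.64 in NN, 5.80 in ND, 5.52 in DN and 4.91 in DD, so ND and DN were the higher groups. In subfamily 2B, Cyp2b1 was highest in NN (4.13), Cyp2b2 in ND (8.89) and Cyp2b3 in DN (9.30), and 3 of 3 were lowest in DD. A link between Nr1i3 and P450 genes was not tested. Cebpa, a C/EBP factor, was lowest in DN at 6.73 and highest in DD at 7.72, a difference of 0.99 ± 0.312, and Ppara was lower in DD than in DN by -0.56 ± 0.202.

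Redox partners and haem enzymes formed a list of 18 genes, of which 13 were measured and 0 called. For DD minus DN 9 of 13 were above 0, against 6657 of all 12912 genes tested. Their median was 0.12, against 0.01 over all genes, and of the opposite sign to the P450 median. Fech, which inserts iron to form haem, was 4.64 in DD and 5.44 in DN on average (-0.80 ± 0.286, adjusted p = 0.168 in limma). Fdx2, a mitochondrial ferredoxin, was 5.94 in DD and 5.41 in DN (0.53 ± 0.211). Por, the electron donor of microsomal P450 enzymes, averaged 7.54 in NN, 7.47 in ND, 7.06 in DN and 7.30 in DD.

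Genes of the pericentral zone, where most drug-metabolising P450 enzymes are found, were measured for 7 of 10 and 0 were called. Gulo, of ascorbate synthesis, differed by -0.54 ± 0.203 and Rgn by -0.44 ± 0.228 between DD and DN. Over the 7 genes the median of DD minus DN was 0.07, against 0.01 over all genes. Of the 7, 4 were above 0, against 6657 of all 12912 genes tested. Of 10 periportal genes 7 were measured and 0 called, with a median of -0.01. Oat (0.87 ± 0.395) was the pericentral and Ass1 (0.53 ± 0.245), of the urea cycle, the periportal gene of largest statistic for ND minus NN.

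Markers of other liver cells also differed in mean between DD and other groups. For the endothelium 4 of 6 markers were measured, and 4 of 4 were lower in DD than in DN, 2 of them at an unadjusted p under 0.05, where 10.6% of all genes were lower. Their mean signal ran from 5.26 to 5.96 in NN, 5.54 to 5.83 in ND, 5.58 to 5.92 in DN and 5.10 to 5.67 in DD. For Kupffer cells 6 of 7 were measured, and 4 of 6 were lower in DD than in DN, 2 of them at that p, while Clec4f (6.17 in DD, 5.96 in DN) and Marco (5.97, 5.69) were not. Against ND 6 of 6 were lower in DD, 1 of them at that p, where 5.84% of all genes were. Their mean signal ran from 5.15 to 5.73 in NN, 4.90 to 5.93 in ND, 4.79 to 5.76 in DN and 4.85 to 5.14 in DD. No measured marker of either list was listed at 0, none was called by limma, and their part in the P450 values was not tested. Of 7 stellate cell markers 7 were measured, and 6 of 7 were higher in DD than in NN, 3 of them at that p, where 1.33% of all genes were higher, with a median of 0.37. Against DN 5 of 7 were higher in DD, with a median of 0.28, but at that p 0 were higher and 1 was lower. Of all genes, 7.84% were higher and 10.6% lower there. In ND 7 of 7 were higher than in NN, against 48.4% of all genes. At that p 1 of the 7 was higher, where 2.75% of all genes were. The hepatocyte list differed by a median of -0.05 between DD and DN.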

How the data were processed

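Total RNA from each of 17 livers was labelled with biotin and hybridised to an Affymetrix array, per the labels' protocols. The deposited log2 signals were made by the authors with RMA and the affy package, per the submitters' processing notes, which give no version. No source states the log base, which was read as 2. They are relative signals with no read depth, and the number of arrays limits the precision. No label gives a batch or scan date, so none was tested. Groups come from the sample titles.

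The value table holds 36685 probe sets. The platform annotation gives 1 gene symbol for 14824, several for 829 and none for 21032, which are unnamed here. Symbols were checked against RefSeq (GRCr8): 14670 sets matched and 0 symbols differed. The set of highest mean was kept for each of 14557 genes, and 12912 genes were tested, those over 1.73 (the 25th percentile of all signals) on 4 or more arrays.

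Differences were estimated with limma 3.58.1 in R 4.3.3 (lmFit and eBayes), as 4 group means on all 17 arrays with 13 residual degrees of freedom. Benjamini-Hochberg adjustment ran over the 12912 genes within each of 7 comparisons, with calls at adjusted p under 0.05. The fit was tested on simulated data. A difference is given ± its SE and a group mean ± its SD.

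The members and gene lists were chosen with earlier results of these data known. Members above the 50th percentile (2.58) on average are named with their levels, the 10 of largest moderated statistic in each comparison with their differences, and 3 genes of each pathway list. Alternatives covered the filter, the choice of probe set, the normalisation, array spread as a covariate, the variance model, array weights, the samples fitted, the replicate number as a block and leaving out each array. A fit without DN 3 and DD 3 was added after the data had been seen. Plots were drawn with matplotlib 3.10.9.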

Additional observations from a re-analysis of the deposited data

Results flagged for a closer look

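In each group the highest and the lowest liver were compared with the rest by the ratio of the gap to the whole range, for 41 genes of the P450 set with named levels or differences. Of 164 groups of livers, 8 held a liver that stood apart, where chance gives 1 in 20, or 8.2. The widest gap was that of Cyp2c13 in ND 4, at 7.43 against 1.48 to 2.09 in the other ND livers.

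Another 4 of the 8 lay in NN. Cyp2d3 was 7.23 in NN 2 against 6.16 to 6.23 in the other NN livers. NN 3 stood apart for 3 genes, with Cyp1b1 at 3.12 against 3.35 to 3.37, Cyp2d4 at 4.21 against 4.75 to 4.80, and Cyp2u1 at 4.39 against 3.75 to 3.81. In DD, liver 2 was high for Cyp2d2, at 9.47 against 9.14 to 9.16, and for Cyp4a3, at 7.94 against 7.05 to 7.18. In ND, liver 4 was low for Cyp2s1, at 3.17 against 3.44 to 3.48.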

How the results depend on the processing

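Over the alternatives run, the count of P450 genes called stayed at 0 in 194 of 195 values. The exception was the interaction without NN 2, where 6 were called, so that the leave-one-out counts ran from 0 to 6. The median difference moved by less than the spread between arrays (0.116) in 184 of 195 values. The main medians of ND minus NN (0.101), DN minus NN (0.107), DD minus NN (-0.0918) and ND minus DN (-0.00844) are themselves smaller in size than 0.116. A move of these to 0 would go uncounted, so the count cannot show that they held. With array spread as a covariate the median was -0.00443 for DD minus DN, -0.0546 for DD minus ND and -0.0423 for the interaction. The interaction median was -0.219 with no filter, -0.529 with the filter at the 50th percentile and -0.493 after centring each array on its median, which moved the median of all genes from 0.03 to -0.09. Leaving out each array in turn, it ran from -0.455 to -0.187, and the ND minus NN median ran from 0.0572 to 0.248, the latter without NN 2. The 70 named differences were refitted under the alternatives, which gave 1941 values. Of these, 1934 kept direction and call, 5 were called without NN 2, and 2 reversed. None of the 70 was called on all arrays, so keeping the call meant staying uncalled with the same sign. A difference that shrank counts as kept, as that of Cyp4a1 between DD and DN did with array spread as a covariate. The count therefore cannot show that the sizes held. Without ND 4, ND minus DN was -0.0563 for Cyp2c11 and -0.428 for Cyp2c13, where leaving out each array in turn gave up to 1.12 and 1.56, both without ND 1.

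Counts at unadjusted p under 0.05 moved more. Over all alternatives they ran from 1 to 10 higher (1.21% to 6.41% of all genes) and 1 to 3 lower (0.945% to 4.52%) for ND minus NN. For DN minus NN they were 0 to 11 higher (3.09% to 10.7%) and 1 to 4 lower (3.69% to 10.1%). DD minus DN had 0 to 4 higher (3.28% to 9.16%) and 1 to 15 lower (2.34% to 13.4%). DD minus ND had 0 to 1 higher (1.27% to 4.73%) and 1 to 11 lower (1.54% to 8.88%). They ran from 0 to 3 higher (0.903% to 2.38%) and 0 to 2 lower (1.51% to 3.88%) for DD minus NN. ND minus DN had 0 to 2 in either direction (1.14% to 3.07% higher, 0.705% to 2.78% lower). The interaction had 0 to 4 higher (2.68% to 11.3%) and 2 to 18 lower (1.81% to 15.2%). The fewest lower genes in DD minus DN, DD minus ND and the interaction came with array spread as a covariate.

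Replicate numbers are shared by the groups, but no pair of groups had every same-numbered pair of livers correlated above 0.1 in their deviations. The correlations ran from -0.454 to 0.533 over 24 pairs, with a median of 0.0396. Of the 12 pairs without an ND liver 11 were above 0 (median 0.206), and of the 12 with one 5 were (median -0.0159). With the replicate number as a block, which drops DN 5, 0 members were called and the medians were 0.101 for ND minus NN, 0.128 for DN minus NN, -0.255 for DD minus DN, -0.194 for DD minus ND, -0.0918 for DD minus NN, -0.0829 for ND minus DN and -0.425 for the interaction. At unadjusted p under 0.05 the block moved the higher genes in DN minus NN from 3 (6.78% of all genes) to 11 (7.85%). It moved the lower genes in DD minus ND from 5 (5.84%) to 11 (7.25%) and in DD minus DN from 9 (10.6%) to 13 (12.6%). Those in the interaction went from 12 (11.9%) to 18 (13.5%). Without DN 3 and DD 3, the arrays of lowest mean correlation with the rest, chosen after the data were seen, the interaction median was -0.343 with 0 calls. Genes near the filter value, such as Cyp3a9 and Cyp3a73, carry little signal over background.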
